A study of Rattus norvegicus with 9 samples.

Results

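Laminins are the glycoproteins on which basement membranes are assembled, and the genes of their chains were followed here through 3 growth settings of 1 rat colon carcinoma line. The members were the rows of the deposited count table whose symbol was Lama1, Lama2, Lama3, Lama4, Lama5, Lamb1, Lamb2, Lamb3 or Lamc1, which gave 9 of the 34322 genes in the table. All 9 were found. The rule used gene names only, and the members were chosen with earlier results of these data known. RNA had been sequenced from CC-531 ex vivo tumors 1, 2 and 3, from CC-531 organoids p7, p8 and p9 and from CC-531 cells p5, p8 and p11, giving 3 libraries per sample type, where p stands for the passage. For the ex vivo tumors, WAG/Rij rats of 8 to 10 weeks of age had received 1 mL of CC-531 suspension into the peritoneal cavity, and the lesions that formed there were taken. The organoids were CC-531 cells cultured in matrigel, a laminin-rich basement membrane extract from a mouse tumor, and the cells were grown in RPMI1640 medium with 10% fetal bovine serum. CC-531 is a colon carcinoma line derived from the same rat strain, no library is labelled as treated, and every library thus comes from 1 line. The ex vivo tissue holds host cells beside the tumor cells, and the labels do not say whether each tumor came from a different rat.

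A laminin molecule is a trimer of 1 alpha, 1 beta and 1 gamma chain, joined in a coiled coil and secreted by the cell. The alpha chain carries the globular domains that bind integrins and dystroglycan, and the short arms of the chains let most laminins polymerise into a sheet that nidogen, perlecan and collagen IV stabilise. In the gut epithelium the chains of Lama5 with Lamb1 or Lamb2 and Lamc1, and those of Lama3 with Lamb3, are typical of epithelial cells, whereas Lama2 and Lama4 are known from muscle, fibroblasts, adipose tissue and vessels. Lama1 is known mainly from embryonic basement membranes and from the mouse tumor matrix used as matrigel. Lamc3 was also in the table and served as another laminin chain.

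The promoter letters of 4 members are shown because these members stand for the patterns described in the following paragraphs: a gene without a count in both cultures (Lama4), a pair whose levels kept a near-constant ratio in tumors and organoids (Lama5 and Lamc1) and a gene that was low in 1 organoid library (Lamb3). The sequences are the 250 bases before the RefSeq start of each gene in the rat assembly GRCr8, at chr20:43946648-43946897 (plus strand) for Lama4, chr3:187695975-187696224 (minus strand) for Lama5, chr13:68051987-68052236 (minus strand) for Lamc1 and chr13:107362303-107362552 (plus strand) for Lamb3. Capitals mark TATAAA in Lama4, the GC box GGGCGG or its complement CCGCCC in Lama5 and Lamc1, and the cyclic AMP response element TGACGTCA in Lamb3, each read 5′ to 3′ on the gene's strand.
Lama4: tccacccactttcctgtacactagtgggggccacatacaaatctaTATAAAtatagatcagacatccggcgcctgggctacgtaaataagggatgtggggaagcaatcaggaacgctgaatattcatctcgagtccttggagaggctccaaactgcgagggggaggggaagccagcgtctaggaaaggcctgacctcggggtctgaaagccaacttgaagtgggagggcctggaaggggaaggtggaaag
Lama5: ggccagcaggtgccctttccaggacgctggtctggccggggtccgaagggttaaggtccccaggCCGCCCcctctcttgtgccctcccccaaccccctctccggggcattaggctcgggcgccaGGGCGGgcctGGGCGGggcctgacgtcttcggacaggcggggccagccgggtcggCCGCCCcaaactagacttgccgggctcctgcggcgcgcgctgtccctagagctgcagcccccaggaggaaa
Lamc1: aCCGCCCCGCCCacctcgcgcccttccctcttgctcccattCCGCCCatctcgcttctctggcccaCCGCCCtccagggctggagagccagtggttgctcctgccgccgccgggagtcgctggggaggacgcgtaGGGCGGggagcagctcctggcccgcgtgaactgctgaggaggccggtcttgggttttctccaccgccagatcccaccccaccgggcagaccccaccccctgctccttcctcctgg
Lamb3: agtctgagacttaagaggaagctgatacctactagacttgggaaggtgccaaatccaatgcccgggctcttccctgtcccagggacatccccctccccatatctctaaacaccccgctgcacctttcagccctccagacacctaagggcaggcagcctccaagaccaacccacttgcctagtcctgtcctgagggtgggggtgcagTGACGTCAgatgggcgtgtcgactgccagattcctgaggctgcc
Of the 9 members, 8 had a promoter in the RefSeq table. The Lama5 window held 4 GC boxes and 20 CpG dinucleotides. In the Lamc1 window there were 5 GC boxes, of which the first 2 share a base, and 19 CpG, against a median of 5 CpG over the 33469 promoters of the table. A GC box occurred in 30.5% of these promoters. The promoter of Lamb1 held 2 GC boxes and that of Lama2 held 1, whereas Lama1, Lama3, Lama4 and Lamb3 had none. The letters TGACGTCA, found 44 bases before the Lamb3 start, occurred in 1.59% of promoters. The AP-1 letters TGANTCA, found in 6.34% of promoters, occurred 3 times before Lama3, beginning 240, 92 and 36 bases before its start, and in no other member. TATAAA or its complement TTTATA, present in 12.9% of promoters, lay 205 bases before the Lama4 start. Both strands were searched, and a match describes the letters only.

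The total count per library was 12601774 to 18438055 in the ex vivo tumors, 15968793 to 20444595 in the organoids and 16983060 to 24335921 in the cells. Levels are given as CPM, the counts of a gene as a share of the library's total, scaled by the trimmed mean of M-values (TMM), and are read across libraries and not between genes, because transcript length was not used. Unless another source is named, log2 fold changes, standard errors (SE) and adjusted p-values come from edgeR's quasi-likelihood test over all 9 libraries with Benjamini-Hochberg adjustment over 13331 genes, and a gene was called at an adjusted p under 0.05. Only 6 members entered this fit, since Lama1, Lama2 and Lama4 were too low on average. Organoid library p7 stood apart from the other organoids: 10.3% of the tested genes were over 2-fold lower in p7 than the mean of p8 and p9, and 6.81% were over 2-fold higher. Fold changes of the laminin chains against or in organoids are therefore given with and without it, except that of Lamb1 in organoids against cells. For basement membrane, receptor, plaque, glycosylation and protease genes this was done only for the fold changes printed below. There it was done where leaving p7 out changed the call or moved the value by over 1.5 times. The epithelial markers, 10 of 10 with counts in each sample type, summed to 5061 to 7689 CPM in ex vivo tumors, 4473 to 6271 CPM in organoids and 3793 to 4309 CPM in cells, so the labelled carcinoma origin was matched by epithelial transcripts in every library.

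The clearest difference among the laminin genes was in Lama4 and Lama2, the alpha chains of vessels, muscle and connective tissue. Lama4 had 803, 868 and 1193 counts in ex vivo tumors 1, 2 and 3, against 0 in all 3 organoid and all 3 cell libraries. These counts correspond to 61.0, 44.9 and 92.8 CPM in the tumors, with a mean of 66.2 ± 24.4 CPM (SD, n = 3). Every tumor library was thus above every culture library, with ex vivo 3 the highest. Measured against 3 counts over the group, the tumor level of Lama4 exceeded that of organoids at least 1126-fold and that of cells at least 1237-fold. A count of 0 over the group allows up to 0.0561 CPM in organoids and 0.0511 CPM in cells, which covers counting error only.

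Lama2, the alpha chain known from muscle basement membranes, had 5.85, 4.50 and 9.18 CPM in the ex vivo tumors. Among organoids it had 0.112 CPM in p8 and 0 CPM in p7 and p9, from 2 counts in all. In the cells p5, p8 and p11 it had 0.217, 0.334 and 0.0565 CPM, from 12 counts in all. The tumors lay above both cultures without overlap, whereas organoids and cells overlapped near the limit of detection. The ratio of pooled tumor counts to organoid counts was 166 (exact 95% counting interval 45.6 to 1380), and that to cell counts was 30.4 (17.2 to 59.6).

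Lama1, the alpha chain of embryonic laminin, had 1, 11 and 6 counts in ex vivo tumors 1, 2 and 3 and no count in any organoid or cell library. Its highest level was 0.569 CPM, in ex vivo 2, and the count in ex vivo 1 (0.076 CPM) lay under that library's limit of 3 counts (0.228 CPM). Against 3 counts over the group, the pooled level was at least 7.08-fold higher in tumors than in organoids and at least 7.77-fold higher than in cells. Lama1 passed neither limit on low counts. Lama2 and Lama4 passed only filterByExpr, which keeps genes expressed in 1 sample type, and did so through the tumors, so that the 3 genes are described by their counts and no test is given for them.

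The tumors also carried transcripts of host cell types, some of them known to make these chains. The 10 fibroblast markers summed to 4423 to 9120 CPM in ex vivo tumors, 10.4 to 23.5 CPM in organoids and 6.67 to 10.2 CPM in cells, with Dcn, Lum and Dpt at 0 counts in both cultures. The sums of the 11 endothelial markers were 272 to 467 CPM in tumors, 18.0 to 35.4 CPM in organoids and 53.5 to 59.2 CPM in cells, and Kdr, Emcn and Cldn5 had no count in either culture. Tek, the endothelial marker of highest mean level, had log2 fold changes of −0.79 (adjusted p = 0.167) in tumors against cells and 0.60 (adjusted p = 0.265) against organoids. Neither was called. For the 9 markers of pericytes and smooth muscle the sums were 568 to 1018 CPM in tumors, 69.7 to 222 CPM in organoids and 96.7 to 163 CPM in cells. Among these, Notch3 had the highest mean level and was not called in tumors against cells (−0.80, adjusted p = 0.289) or against organoids (−0.73, adjusted p = 0.305). Markers of skeletal muscle stayed low, at 11.02 to 18.5 CPM in tumors, 1.85 to 3.29 CPM in organoids and 4.45 to 5.89 CPM in cells, while those of adipocytes spanned 26.6 to 459 CPM in tumors, 19.2 to 44.4 CPM in organoids and 6.15 to 12.03 CPM in cells. The 10 macrophage markers summed to 3413 to 4020 CPM in tumors, 2.90 to 5.39 CPM in organoids and 2.95 to 5.65 CPM in cells, and C1qa, C1qc, Cd163 and Marco had no count in either culture. Mesothelial markers reached 368 to 473 CPM in tumors, 202 to 299 CPM in organoids and 302 to 457 CPM in cells. These sums were set mainly by Msln, whose mean was 373 CPM in tumors, 218 CPM in organoids and 371 CPM in cells. Wt1 counts were 324 over the tumors, 0 over the organoids and 2 over the cells, and those of Lrrn4 were 502, 26 and 3. In the same order, Upk1b averaged 11.8, 14.8 and 1.13 CPM, Upk3b 3.61, 2.75 and 3.73 CPM, and Bnc1 2.56, 0.0222 and 2.03 CPM. Schwann cell markers summed to 2.33 to 13.4 CPM in tumors, 2.90 to 5.33 CPM in organoids and 2.04 to 3.28 CPM in cells. The part of these cells in the levels of Lama1, Lama2 and Lama4 was not tested. In bulk tissue, fewer cells of a type and less RNA per cell cannot be told apart.

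**Figure D1:**
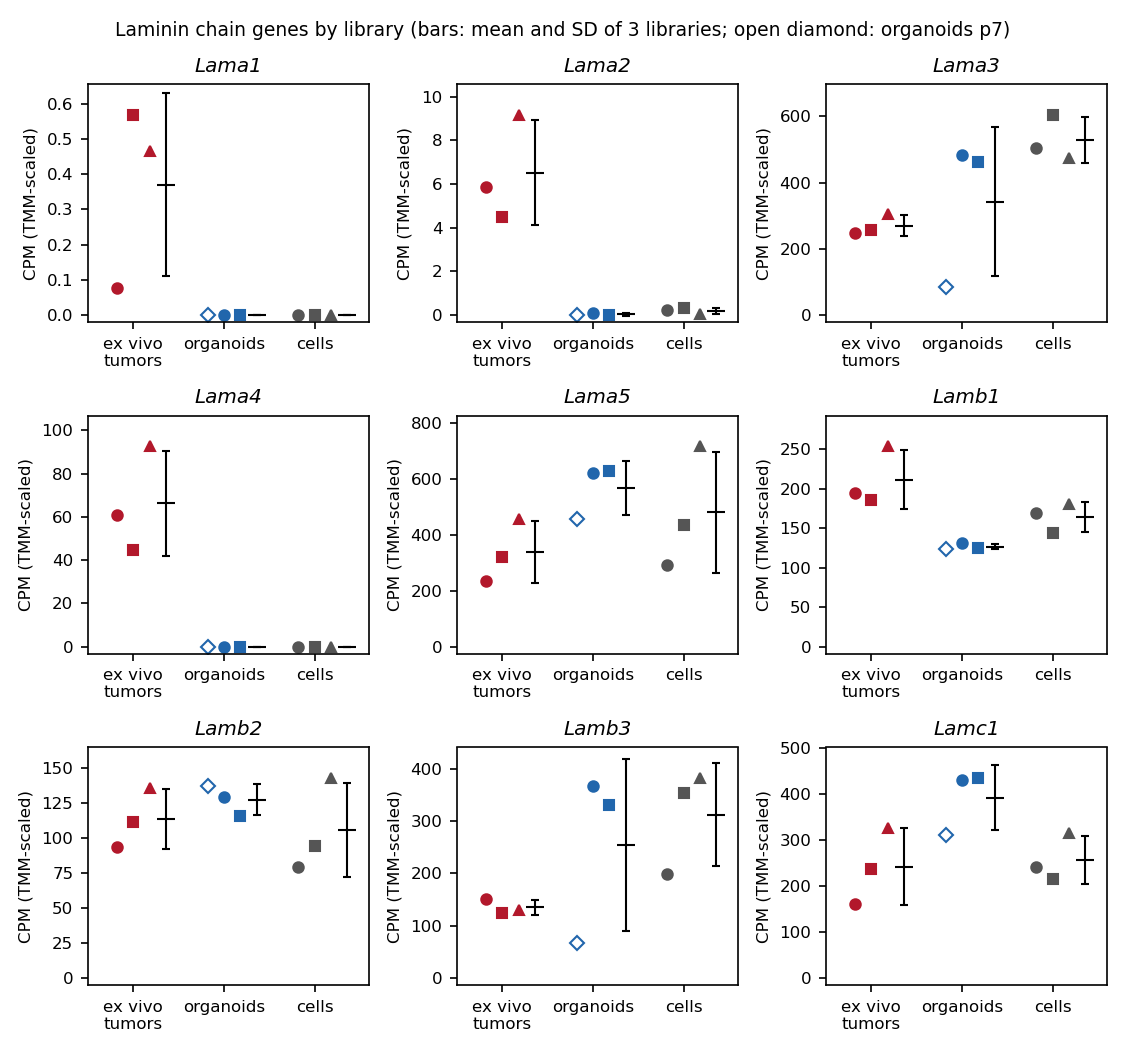
TMM-scaled CPM of the 9 laminin chain genes in each library, with 1 panel per gene, symbols for libraries and bars for the mean and SD of 3 libraries. Lama1, Lama2 and Lama4 lie at or near 0 CPM in organoids and cells, while Lama3 and Lamb3 of organoids p7 (open diamonds, 83.4 and 66.6 CPM) lie below the other organoids.

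The other alpha chains were present in every library. Lama3, the alpha chain of the hemidesmosome-anchoring laminin of epithelia, had 247, 258 and 305 CPM in ex vivo tumors, 83.4, 483 and 461 CPM in the organoids of passages 7, 8 and 9, and 505, 605 and 473 CPM in cells p5, p8 and p11. All 3 tumors lay below all 3 cell libraries, while the organoids were split, with p7 below every tumor and p8 and p9 above them. Lama3 averaged 270 ± 31.1 CPM in tumors, 342 ± 225 CPM in organoids and 528 ± 68.8 CPM in cells (SD, n = 3 each). Its log2 fold change in ex vivo tumors against cells was −0.97 (SE 0.48, adjusted p = 0.183), which was not called. Without organoids p7 the same contrast gave −0.98 (SE 0.19, adjusted p = 0.00236), and in a fit of the tumors and cells alone −0.98 (adjusted p = 0.00834), so that the size stayed while the SE fell and the call changed. Against organoids the value was −0.34 (SE 0.48, adjusted p = 0.629) with p7 and −0.79 (SE 0.20, adjusted p = 0.0112) without it. Between organoids and cells it was −0.62 (SE 0.48, adjusted p = 0.420) with p7 and −0.20 (adjusted p = 0.518) without it.

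Lama5, the main alpha chain of adult epithelial basement membranes, had 237, 322 and 456 CPM in the tumors, 457, 621 and 629 CPM in organoids and 292, 435 and 718 CPM in cells p5, p8 and p11. The tumors were all below the organoids, by less than 1 CPM between the nearest libraries, and the cells spanned the range of both. The means were 338 ± 111 CPM in tumors, 569 ± 97.1 CPM in organoids and 482 ± 217 CPM in cells (SD, n = 3 each). No difference was called: the log2 fold change was −0.75 (SE 0.34, adjusted p = 0.131) in tumors against organoids, −0.51 (SE 0.34, adjusted p = 0.321) in tumors against cells and 0.24 (SE 0.34, adjusted p = 0.684) in organoids against cells. Without p7 the values of the comparisons with organoids were −0.87 (adjusted p = 0.0763) and 0.34 (adjusted p = 0.510). The sign of the last comparison turned without cells p5 (−0.023).

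Among the beta chains, Lamb1, the partner of Lama5 or Lama4 with Lamc1 in many tissues, was the member that passed the test. Lamb1 had 194, 186 and 254 CPM in ex vivo tumors, 124, 131 and 125 CPM in organoids and 169, 143 and 181 CPM in cells. Tumors were highest, cells intermediate and organoids lowest, with no overlap between any of the 3 sample types. The organoid libraries were close together, p7 included, with an SD of 0.041 on the log2 scale against a median of 0.282 over all tested genes. Lamb1 averaged 211 ± 37.0 CPM in tumors, 127 ± 3.68 CPM in organoids and 164 ± 19.1 CPM in cells (SD, n = 3 each). It rose 1.67-fold in ex vivo tumors against organoids (log2 fold change 0.74, SE 0.19, adjusted p = 0.0183), whereas the values of 0.36 (SE 0.19, adjusted p = 0.210) in tumors against cells and −0.38 (SE 0.19, adjusted p = 0.224) in organoids against cells were not called. The called rise was 0.74 (adjusted p = 0.0154) without p7. It was no longer called without ex vivo 3 (0.59, adjusted p = 0.0655), without organoids p8 (0.77, adjusted p = 0.0556) or without organoids p9 (0.74, adjusted p = 0.0677).

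Lamb2, the beta chain of muscle, kidney and vessel laminins that also pairs with Lama5, had 93.3, 112 and 135 CPM in tumors, 137, 129 and 115 CPM in organoids and 79.2, 94.4 and 143 CPM in cells. The 3 sample types overlapped throughout. Its log2 fold changes were small, at −0.17 (SE 0.24, adjusted p = 0.647) in tumors against organoids, 0.10 (SE 0.24, adjusted p = 0.800) in tumors against cells and 0.27 (SE 0.24, adjusted p = 0.495) in organoids against cells. Without p7 the comparisons with organoids gave −0.091 (adjusted p = 0.803) and 0.18 (adjusted p = 0.643).

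Lamb3, the beta chain that joins Lama3, had 152, 124 and 129 CPM in ex vivo tumors, 66.6, 367 and 331 CPM in the organoids in passage order, and 200, 353 and 383 CPM in cells p5, p8 and p11. As for Lama3, the tumors lay below every cell library, and organoid p7 lay below every other library. Lamb3 averaged 135 ± 14.8 CPM in tumors, 255 ± 164 CPM in organoids and 312 ± 98.5 CPM in cells (SD, n = 3 each). In ex vivo tumors against cells the log2 fold change was −1.21 (SE 0.49, adjusted p = 0.113), not called, but it was −1.22 (SE 0.24, adjusted p = 0.00343) without p7 and −1.22 (adjusted p = 0.00686) in the fit of the 2 sample types alone. In tumors against organoids it was −0.91 (SE 0.49, adjusted p = 0.194), and −1.35 (SE 0.27, adjusted p = 0.00252) without p7. Between organoids and cells the value was −0.29 (SE 0.48, adjusted p = 0.732), and its sign turned without p7 (0.13, adjusted p = 0.763).

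Lamc1, the gamma chain shared by most laminins, had 161, 237 and 327 CPM in tumors, 310, 429 and 435 CPM in organoids and 240, 215 and 314 CPM in cells. Tumors and cells overlapped fully, and the organoids lay mostly above both, with p7 the exception. The means were 242 ± 83.1 CPM in tumors, 391 ± 70.8 CPM in organoids and 256 ± 51.4 CPM in cells (SD, n = 3 each). The log2 fold change was −0.70 (SE 0.28, adjusted p = 0.0920) in tumors against organoids, −0.086 (SE 0.28, adjusted p = 0.862) in tumors against cells and 0.61 (SE 0.28, adjusted p = 0.175) in organoids against cells, none of them called. Without p7 the fall against organoids was called (−0.82, adjusted p = 0.0378), as it was without ex vivo 3 (−0.97, adjusted p = 0.0438), while organoids against cells gave 0.72 (adjusted p = 0.0777).

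Lamc3, a gamma chain of nervous tissue and some other sites, had 4 to 11 counts in tumors, 8 to 16 in organoids and 4 to 7 in cells.

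Over the 6 members in the fit, 1 was called in ex vivo tumors against organoids (Lamb1), where 22.7% of all tested genes were called. There, 3 members (Lama5, Lamb1 and Lamc1) had an unadjusted p under 0.05 by edgeR. DESeq2 called 1, limma on quantile-normalized values 1 and limma-voom with library weights 5. The share of all genes called by limma-voom is not given. In tumors against cells 0 members were called by edgeR's quasi-likelihood test, where 19.2% of all genes were, with 1 member (Lamb3) at an unadjusted p under 0.05, 1 called by DESeq2, 1 by limma on quantile-normalized values and 3 by limma-voom with library weights. In organoids against cells 0 were called against 10.7% of all genes, with 1 member (Lamc1) at an unadjusted p under 0.05, 0 called by DESeq2 or by limma on quantile-normalized values and 2 by limma-voom. Without p7, edgeR called Lama3, Lamb3 and Lamc1 beside Lamb1 in tumors against organoids, where 36.6% of all genes were called. Lama3 and Lamb3 were then also called in tumors against cells, where 27.6% of all genes were. With p7 included, libraries did not overlap for 2 of the 6 members (Lamb1 higher, Lama5 lower) in tumors against organoids, against 41.2% of all genes. In tumors against cells this held for 3 members (Lamb1 higher, Lama3 and Lamb3 lower) against 41.0% of genes, and in organoids against cells for 1 (Lamb1 lower) against 31.8%. Lama3, Lamb3 and Lamc1 overlapped in tumors against organoids only through p7, and the share of all genes without p7 is not given. The median log2 fold change of the 6 members was −0.52, −0.30 and −0.026 in these 3 comparisons, beside 0.031, 0.0040 and 0.025 over all tested genes. Each pair of comparisons shares the libraries of 1 sample type.

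**Figure D2:**
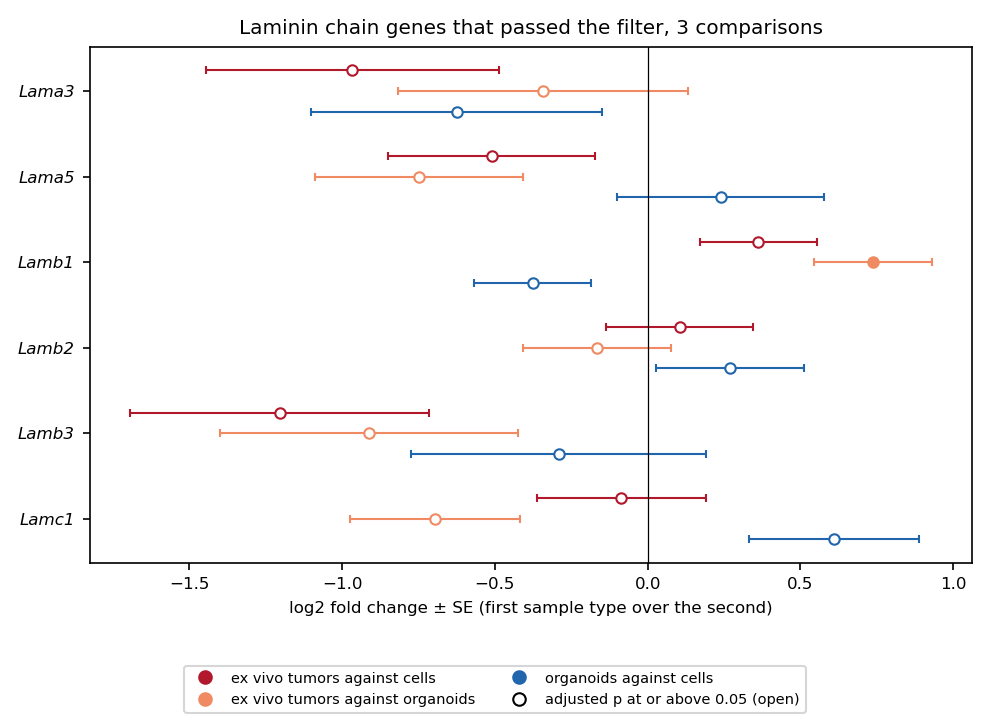
Log2 fold changes with their SE for the 6 members in the 9-library fit in the 3 comparisons; filled points have an adjusted p under 0.05. Lamb1 in ex vivo tumors against organoids (0.74) is the filled point, and the SE bars of Lama3 and Lamb3 are the widest.

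The organoid libraries differed among themselves in 2 chains of 1 trimer. On the log2(CPM + 0.5) scale, Lama3 was 2.49 below the mean of p8 and p9 in p7, or 5.63-fold lower. Lamb3 was 5.21-fold lower in p7. These chains join in a single laminin molecule, and only 0.968% and 1.20% of all tested genes lay further down in p7. Lama5 was 1.37-fold and Lamc1 1.39-fold lower in p7, and the log2 differences of Lamb1 (−0.047) and Lamb2 (0.17) were near 0. Between p8 and p9 no chain in the fit differed by more than 0.165 on this scale (Lamb2). With 1 library there is no test. Among 48 tested partner, receptor, plaque, glycosylation and protease genes, 7 were over 2-fold lower in p7 (Col7a1, Pxdn, Itga1, Itga2, Cd151, Mcam and Plec) and 7 over 2-fold higher (Sparc, Fbln1, Hmcn1, Fras1, Frem2, Itga7 and Bcam). Of all tested genes, 10.3% were over 2-fold lower in p7 and 6.81% over 2-fold higher. Col7a1, the collagen of the anchoring fibrils, was 6.83-fold lower, whereas Hmcn1, a matrix gene, was 7.65-fold higher. Itgb4, which with Itga6 forms the hemidesmosome receptor of this laminin, differed by 0.0997 on the log2 scale. Across the family the SD within organoids was 1.44 (Lama3) and 1.38 (Lamb3) on the log2 scale, larger than in 98.6% and 98.4% of tested genes.

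**Figure D3:**
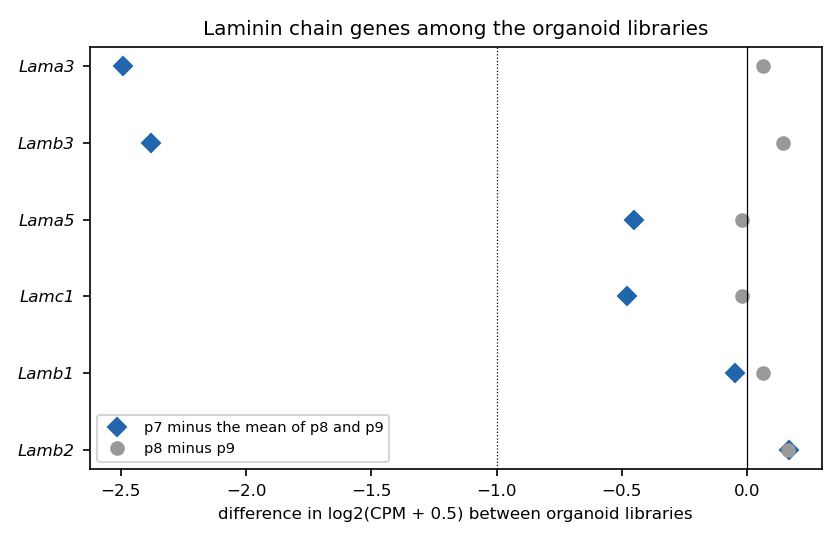
Difference in log2(CPM + 0.5) of organoids p7 from the mean of p8 and p9 (diamonds) and of p8 from p9 (circles) for 6 laminin chain genes; the dotted line marks a 2-fold lower level. Lama3 and Lamb3 lie left of the dotted line at −2.49 and −2.38, and all differences between p8 and p9 lie within 0.165 of 0.

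Ratios of counts within a library do not depend on the scaling between libraries, and so show how the chains moved against each other. The ratio of Lamb1 to Lamc1 counts was 1.21, 0.784 and 0.776 in ex vivo tumors, 0.400, 0.305 and 0.288 in organoids and 0.702, 0.667 and 0.576 in cells. The 3 sample types did not overlap, with tumors highest and organoids lowest. The ratio of Lamb2 to Lamb1, which can take the same place in a trimer, was 0.481, 0.601 and 0.534 in tumors, 1.11, 0.989 and 0.921 in organoids and 0.470, 0.659 and 0.791 in cells. Here organoids lay above both other types and tumors overlapped with cells. Lama5 to Lamc1 was nearly constant in tumors (1.47, 1.36 and 1.40) and in organoids (1.48, 1.45 and 1.45, p7 included), but varied in cells (1.22, 2.02 and 2.29).

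Within the Lama3 trimer, the ratio of Lamb3 to Lama3 counts was 0.616, 0.482 and 0.424 in tumors, 0.798, 0.759 and 0.719 in organoids and 0.395, 0.583 and 0.810 in cells. Organoids exceeded tumors in this ratio, cells spanned both, and p7 did not stand apart from p8 and p9. Lama4 counts reached 0.258, 0.139 and 0.203 of the Lama5 counts in the tumors, and none in the cultures.

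**Figure D4:**
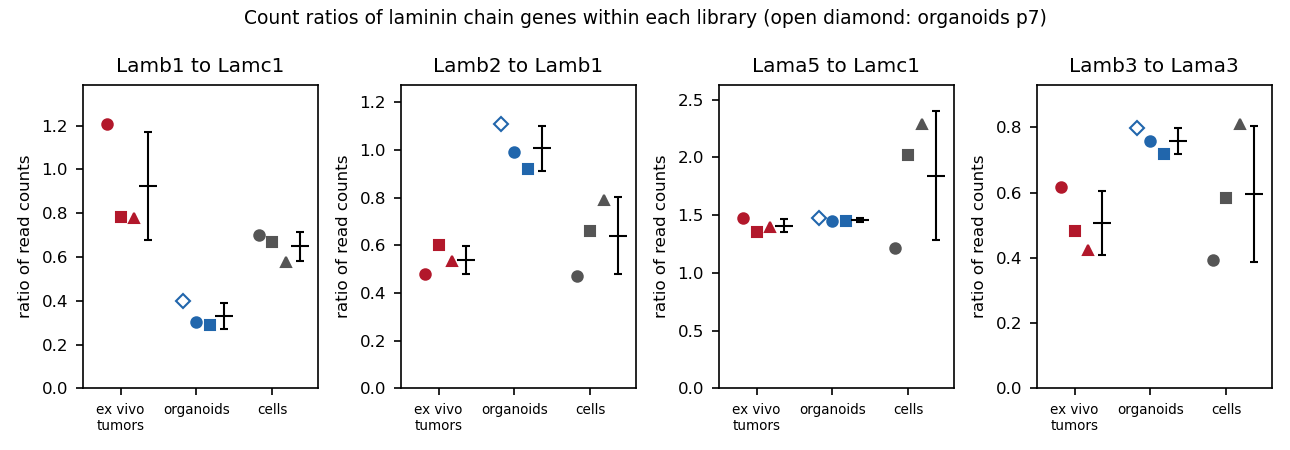
Ratio of read counts of 4 pairs of laminin chain genes in each library, with bars for the mean and SD of 3 libraries; counts are not scaled by transcript length, so a ratio is read across libraries only. Lamb1 to Lamc1 separates the 3 sample types, and in Lama5 to Lamc1 the organoids, p7 (open diamonds) included, lie between 1.45 and 1.48.

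The genes whose levels followed each member most closely were found by the root mean square difference of log2(CPM + 0.5) over the 9 libraries, after each gene was centred on its own mean, among the named genes of the fit. For Lama3 these were Cyp26b1 (0.285) and Ubash3b (0.313), and for Lamb3 Bfsp2 (0.238) and Slco4a1 (0.293). All 4 had their lowest level of the 9 libraries in organoids p7, as Lama3 and Lamb3 had. Lama3 and Lamb3 were each other's 9th nearest gene of 11801 (0.373). For Lama5 the nearest were Aoc2-ps1 (0.160) and Idi2 (0.174), with Lamc1 at rank 89 (0.274). The nearest genes of Lamb1 were Btg3 (0.119) and Hip1 (0.129), those of Lamb2 were Vwa8 (0.124) and Vps8 (0.125), and those of Lamc1 were Tsga10 (0.106) and Rab3gap2 (0.107). Bfsp2 (0.290 to 3.13 CPM), Idi2 (0.532 to 2.06 CPM) and Tsga10 (0.760 to 3.14 CPM) had low levels, where the offset of 0.5 shrinks differences. The points share libraries, depth and scaling, so the root mean square differences describe the 9 libraries only.

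Laminin networks are held by other basement membrane proteins, read by receptors and cut by proteases, and lists of these genes were followed beside the chains. Of 26 basement membrane partners in the table, 17 were tested. In ex vivo tumors against organoids 8 rose and 2 fell, in tumors against cells 7 rose and 1 fell, and in organoids against cells 1 rose and 4 fell, against 12.2% and 10.5%, 12.4% and 6.78%, and 6.44% and 4.29% of all genes that rose and fell. Their medians were 1.22, 1.53 and −0.45 on the log2 scale, beside the medians of all genes given above. In the same order, the whole set of 48 tested partner, receptor, plaque, glycosylation and protease genes held 14 rises and 7 falls, 12 rises and 2 falls, and 3 rises and 6 falls. Without p7 the calls in this set numbered 29, 20 and 13, where 36.6%, 27.6% and 25.4% of all genes were called.

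Nid1, which bridges the laminin gamma chain to collagen IV, had 75.1, 85.1 and 180 CPM in tumors, 1.21, 2.47 and 2.33 CPM in organoids and 1.65, 0.445 and 1.98 CPM in cells. It rose without overlap, by 5.83 on the log2 scale against organoids and by 6.37 (SE 0.56, adjusted p = 1.31e-05) against cells, whereas its binding chain Lamc1 did not pass the test in either comparison. Col4a1, a chain of the collagen IV network, averaged 707 ± 293 CPM in tumors, 32.7 ± 6.08 CPM in organoids and 93.0 ± 28.8 CPM in cells (SD, n = 3 each). It rose in tumors by 4.43 against organoids and by 2.93 against cells on the log2 scale, and in organoids fell by 1.51 (adjusted p = 0.0153) against cells, a call lost without cells p5. Col15a1, Sparc and Fbln2, further matrix genes of connective tissue, rose by 6.16, 6.46 and 7.33 in tumors against organoids. Sparc had 24.1 CPM in p7 against 5.56 and 5.26 CPM in p8 and p9, and without p7 the rises of Sparc and Fbln2 were 7.59 and 8.17. Fbln1 fell by 1.67 and Fbln2 by 3.30 in organoids against cells, and without p7 the fall of Fbln2 was 4.16 and Sparc fell by 2.54 (adjusted p = 3.61e-04), which was not called with it (adjusted p = 0.102).

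Agrn, which encodes the proteoglycan agrin that binds laminin through the coiled coil, went the other way. Its level was 168, 183 and 231 CPM in tumors, 383, 454 and 415 CPM in organoids and 386, 562 and 567 CPM in cells. Agrn fell by 1.11 (SE 0.23, adjusted p = 0.00497) in tumors against organoids and by 1.38 (SE 0.23, adjusted p = 0.00126) in tumors against cells. Fras1, an epithelial basement membrane gene, rose by 1.67 (adjusted p = 0.0388) in organoids against cells and fell by 1.41 (adjusted p = 0.0440) in tumors against organoids. Both Fras1 calls were lost without ex vivo 2, ex vivo 3, organoids p7 or any one cell library, and the second also without ex vivo 1. Without p7 the values were 1.06 (adjusted p = 0.0631) and −0.80 (adjusted p = 0.122).

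Of 15 laminin receptor genes, 14 were tested. In ex vivo tumors against organoids 2 rose and 5 fell, in tumors against cells 3 rose and 1 fell, and in organoids against cells 2 rose and 0 fell, against 12.2% and 10.5%, 12.4% and 6.78%, and 6.44% and 4.29% of all genes. Without p7 there were 4 rises and 6 falls, 5 and 2, and 2 and 1. Itga3, whose product binds the Lama3 and Lama5 laminins, had 236, 264 and 298 CPM in tumors, 450, 805 and 824 CPM in organoids and 561, 711 and 838 CPM in cells. It fell by 1.38 (SE 0.27, adjusted p = 0.00420) in tumors against organoids and by 1.40 (SE 0.27, adjusted p = 0.00387) in tumors against cells. Itga6, the alpha subunit of the hemidesmosome receptor, had 230, 315 and 431 CPM in tumors, 522, 606 and 616 CPM in organoids and 574, 550 and 445 CPM in cells, lower in tumors than in both without overlap. Its fall against organoids of 0.84 (adjusted p = 0.0333) was lost without any one of ex vivo 1, ex vivo 2, organoids p8, organoids p9 or cells p8, and its value against cells was −0.68 (adjusted p = 0.0780), which was called without p7 (−0.70, adjusted p = 0.0460). Itga2 fell by 2.87 (adjusted p = 0.00468) in tumors against organoids, while its libraries overlapped in tumors against cells (−0.80, adjusted p = 0.334).

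Mcam and Itga1, receptors of vessel and stromal cells, moved the other way from Itga3. Mcam, an adhesion molecule of vessels that binds laminin with Lama4, had 60.1, 42.8 and 63.8 CPM in tumors, 1.40, 4.32 and 3.73 CPM in organoids and 1.39, 4.12 and 0.508 CPM in cells. It rose by 4.15 in tumors against organoids and by 4.79 against cells on the log2 scale, and the value against cells was 5.82 without cells p8. Itga1, a collagen and laminin receptor subunit of stromal cells, rose by 4.09 and 3.16 in the same comparisons. Sdc2, picked after its values were seen, was too low on average for the fit, so no test is given for it. It had no count in either culture. Measured against 3 counts over the group, its tumor level exceeded that of organoids at least 651-fold and that of cells at least 715-fold. Sdc1, the epithelial syndecan, rose in organoids by 1.39 (SE 0.22, adjusted p = 0.00331) against cells, with 437, 522 and 491 CPM in organoids and 162, 208 and 185 CPM in cells. Rpsa, which encodes a ribosomal protein also described as a laminin receptor, was not called in any comparison. Itga7, a muscle laminin receptor, rose by 2.75 (adjusted p = 0.0424) in tumors against cells, a call lost without any one of ex vivo 1, ex vivo 3 or a cell library and with quantile normalization (1.02, adjusted p = 0.363). In tumors against organoids Itga7 was called without p7 (2.61, adjusted p = 0.00958) and not with it (adjusted p = 0.437).

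The intracellular and enzymatic partners divided further. Of 6 hemidesmosome genes, 1 rose (Col17a1, by 2.55, adjusted p = 0.00596, with 1.91 to 6.15 CPM in tumors and 0.449 to 0.920 CPM in organoids) and 1 fell (Itga6) in tumors against organoids, where 12.2% and 10.5% of all genes did. The Col17a1 call was lost with quantile normalization (1.184, adjusted p = 0.113). EdgeR called 0 in tumors against cells (2 at an unadjusted p under 0.05, 1 by DESeq2, 0 by limma on quantile-normalized values and 2 by limma-voom) and 0 in organoids against cells (1, 0, 0 and 3 in the same order), beside 19.2% and 10.7% of all genes. None of the 11 tested genes that glycosylate dystroglycan, the step that lets it bind laminin, was called by edgeR in the 3 comparisons, where 22.7%, 19.2% and 10.7% of all genes were. At an unadjusted p under 0.05 there were 3 in tumors against organoids, 1 in tumors against cells and 4 in organoids against cells, and DESeq2 called 3, 0 and 3, limma on quantile-normalized values 3, 2 and 0, and limma-voom 4, 0 and 7. Among them Pomgnt1 had the adjusted p-values 0.0686 in tumors against organoids and 0.0693 in organoids against cells, with log2 fold changes of 0.69 and −0.78. Without p7 edgeR called 3, 0 and 2 of these genes, with Pomgnt1 at 1.04 (adjusted p = 0.00234) and −1.15 (adjusted p = 0.00275). Over all genes in tumors against organoids, DESeq2 called 1928 rises and 1929 falls, and limma on quantile-normalized values 1470 and 3065. Their numbers in the other comparisons are given in the closing section on the processing, and none is given for limma-voom.

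Of the proteases that cut laminin chains, Mmp14 had 127, 83.3 and 140 CPM in tumors, 0.629, 1.01 and 0.866 CPM in organoids and 4.42, 4.78 and 2.03 CPM in cells. It rose by 7.12 in tumors against organoids and by 4.95 against cells, and fell by 2.17 (SE 0.38, adjusted p = 0.00531) in organoids against cells. Mmp2, which Mmp14 activates, had no count in organoids and was at least 1136-fold higher in tumors, with a ratio of pooled counts to cells of 535 (259 to 1332, exact 95% counting interval). Bmp1, which trims laminin chains, rose by 0.79 (adjusted p = 0.0209) in tumors against organoids and fell by 0.81 (adjusted p = 0.0336) in organoids against cells, and both calls were lost without organoids p8 or p9. The first was also lost without ex vivo 3, and the second without ex vivo 2, cells p8 or cells p11. The fibroblast, endothelial, pericyte and macrophage marker sums given above moved with the rises of these partners, and their part in them was not tested.

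**Figure D5:**
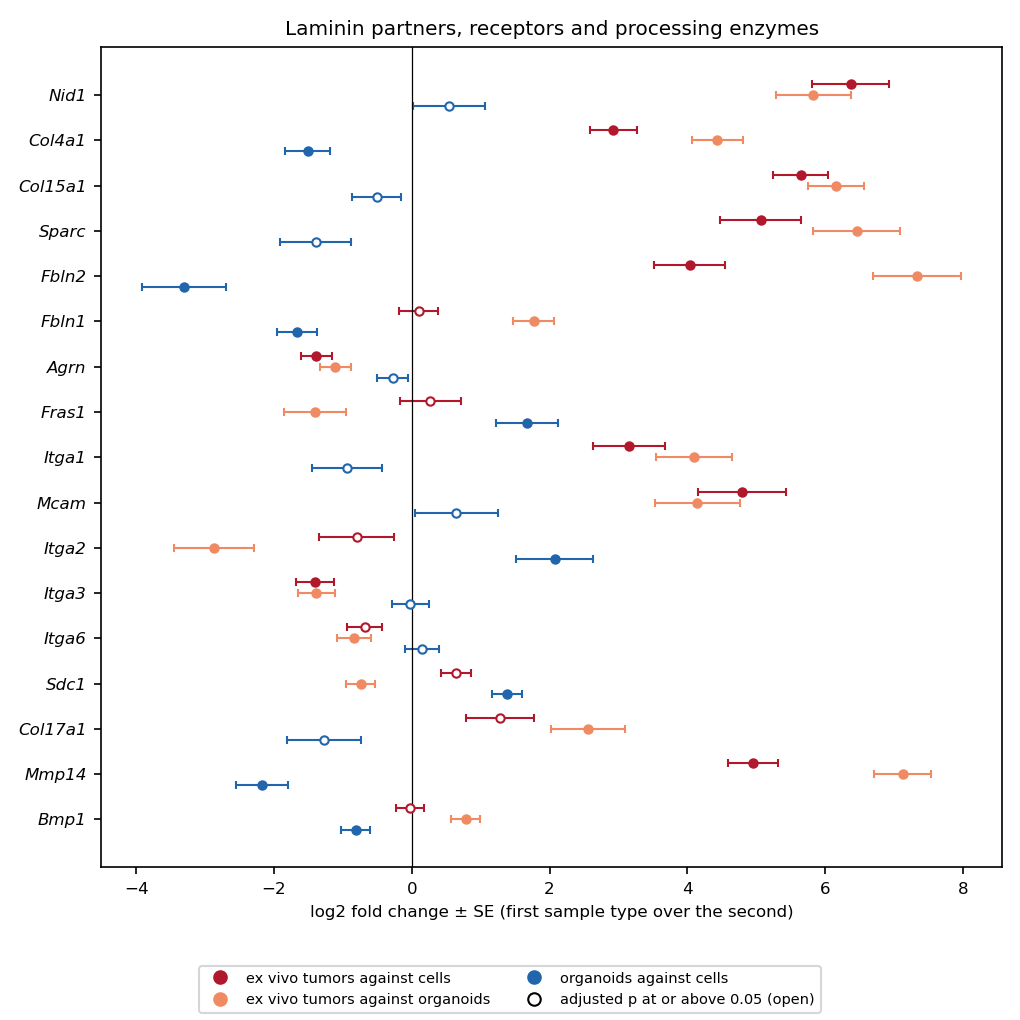
Log2 fold changes with their SE of basement membrane, receptor, plaque and protease genes in the 3 comparisons; filled points have an adjusted p under 0.05. Nid1 and Mmp14 lie far right in both comparisons of ex vivo tumors, and Agrn and Itga3 lie left of 0 in both.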

How the data were processed

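The mRNA of 9 libraries was sequenced on an Illumina HiSeq. Per the labels, the authors used FastQC 0.11.9 and MultiQC 1.9 for read quality, Cutadapt 1.18 for trimming and STAR 2.7.4 for alignment to mRatBN7.2 and for counts per gene. What was deposited are whole-number counts in a table named as normalized. For the gene annotation and the use of strand, the sources used here give nothing. Reads that fit related chains or overlapping genes can be assigned to either.

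Counts were analysed in R 4.3.3 with edgeR 4.0.16 (TMM, estimateDisp, glmQLFit, glmQLFTest, two-sided, 6 residual degrees of freedom) in 1 fit of 9 libraries with 1 mean per sample type. Genes were kept where the mean of quantile-normalized log2(count + 1) was at least 4, which left 13331 genes. Lama2 and Lama4 entered only the filterByExpr fit (16162 genes) and are given as counts. Each SE was taken as the absolute log2 fold change over the root of its F statistic. Alternatives used limma 3.58.1 and DESeq2 1.42.0. On simulated counts with 200 of 13331 genes changed, the procedure recovered 80% of 4-fold and 17% of 2-fold changes in tumors against organoids, 75% and 18% in tumors against cells, and 85% and 15% in organoids against cells. False calls numbered 10, 6 and 6. In the data a larger share of genes was called (22.7%, 19.2% and 10.7%), so the recovery does not give the power of these comparisons. Named genes were all members, and from each other list up to 3 rises and 3 falls of largest fold among called genes without overlap and the gene of highest mean CPM. Itgb4, Sdc2 and the genes over 2-fold apart in organoid p7 were picked after their values were seen. Host marker genes are given as sums, with some genes named beside them for their level or counts. The members and lists were chosen with earlier results of these data known. Promoters are from RefSeq GRCr8. Since the authors' build is another, no other coordinates are given. Proteins and per-length shares of chains were not used here. The labels name no batch, and since they do not say that libraries are separate cultures or rats, p-values measure the spread between these libraries. Plots used Python 3.11.15 and matplotlib 3.10.9.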

Additional observations from a re-analysis of the deposited data

How the results depend on the processing

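Among 324 alternative values of the 6 members in the fit, 284 kept direction and call, 23 gained a call, 4 lost it and 13 changed sign. Calls among members in tumors against organoids (1) became 5 with limma-voom and library weights, 0 at a 2-fold threshold and 0 to 4 with 1 library left out (4 without organoids p7, 0 without p8 or p9). In tumors against cells (0) they became 2 in the fit of 2 sample types, 1 with DESeq2, 1 with quantile normalization, 3 with limma-voom and 0 to 2 with 1 library left out (2 without p7). In organoids against cells (0) limma-voom gave 2 (Lama5 and Lamc1). Calls among partner genes in tumors against organoids (21) became 35 with limma-voom. In tumors against cells (14) they became 27 with no filter and 24 with filterByExpr. In organoids against cells (9) they became 16 with DESeq2, 27 with limma-voom, 1 at a 2-fold threshold and 5 to 13 with 1 library left out (5 without cells p5 or p8, 13 without p7). Member counts with no filter or filterByExpr are not given, since Lama2 and Lama4 passed filterByExpr only through the tumors. The no-filter and filterByExpr counts of partner genes include low genes that the fit of 13331 genes left out. Some of these, such as Sdc2, had counts in tumors only, so the calls they add are no support. Without p7, 36.6%, 27.6% and 25.4% of all genes were called in tumors against organoids, tumors against cells and organoids against cells. The share of all genes is not given for limma-voom, the 2-fold threshold or the fit of 2 sample types. Nor is it given for the other left-out libraries, no filter or filterByExpr. Counts under these settings therefore cannot be set against all genes. For changes other than those from low genes the cause was not tested.

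Sign changes, none of a called value, were Lamb2 in tumors against organoids (0.096 with housekeeping scaling, 0.014 with limma-voom), Lama3 there (0.23 with quantile normalization), Lamc1 in tumors against cells (0.058 with quantile normalization, 0.034 with housekeeping scaling, 0.23 with limma-voom, −0.36 to 0.13 with 1 library left out), Lamb2 there (−0.072 to 0.38 with 1 library left out), and in organoids against cells Lamb3 (0.13 with limma-voom, −0.68 to 0.13 with 1 library left out) and Lama5 (−0.023 to 0.64 with 1 library left out). Quantile normalization shifted the median of all genes by −0.24 in tumors against organoids and −0.26 against cells, and housekeeping scaling by 0.24 in tumors against organoids and −0.15 in organoids against cells. In tumors against organoids the 1631 rises and 1396 falls over all genes became 1470 and 3065 with quantile normalization, 2293 and 561 with housekeeping scaling and 1928 and 1929 with DESeq2. In tumors against cells the 1650 and 904 became 1314 and 2794, 1611 and 371, and 1914 and 1362. In organoids against cells the 859 and 572 became 547 and 517, 505 and 680, and 1352 and 1008.

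No paired analysis was possible because the sample types compared share fewer than 2 replicate numbers. The planned share of each chain per length was not run because transcript lengths are not used here. Precision is limited by 3 libraries per type, and Lama1 by 18 counts in all.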
